A study of Mus musculus with 12 samples.

Results

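The heat shock proteins are molecular chaperones, and this account follows 39 of their genes through 12 libraries of whole mouse pancreas. The genes were taken by symbol, mapped from the Ensembl identifiers of the count files, and they are 39 of 49585 genes listed. They fall into 16 stress-inducible genes, known targets of the transcription factor HSF1, 10 mainly constitutive genes, 3 of mitochondria, the 8 subunits of the CCT chaperonin, and 2 heat shock factors. All 39 passed the filter on low counts.

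Chaperones of the Hsp70 family bind unfolded segments of protein in a cycle driven by ATP. J-proteins (the Dnaj genes) deliver the clients and start hydrolysis, and nucleotide exchange factors such as the Hsp110 and BAG proteins let the clients go. Hsp90 and its co-chaperones finish the folding of kinases and steroid receptors, small heat shock proteins hold aggregating proteins, and the ring-shaped CCT folds actin and tubulin. When unfolded protein accumulates in the cytosol, HSF1 is released from these chaperones and switches on their inducible members. The pancreatic acinar cell makes secretory protein at a very high rate, and cerulein, a cholecystokinin analogue, overstimulates it.

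The mice were C57Bl6 controls (wild type) and a congenic Atf3-/- line, 2 to 4 months old. They received 4 injections of saline or of cerulein at 50 ug/kg, with the pancreas removed at 4 h. The design states 3 animals for every group, and 1 library stands for each animal, named here by its code in the labels. Wild-type saline libraries were W1, K5 and R3, wild-type cerulein libraries O1, O3 and N3, labelled knockout saline libraries S1, K4 and Q1, and labelled knockout cerulein libraries C2, C3 and L4. The labels do not say which part of Atf3 was deleted or whether it was deleted in all tissues, and they give no sex, litter or batch.

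Libraries held 18292997 to 32158629 counts. Atf3 itself was not lower under the knockout label: it stood at 1.13 to 5.27 CPM (read counts scaled to library size, with TMM factors) in wild-type saline, 393 to 775 CPM in wild-type cerulein and 7.43 to 23.05 CPM in labelled knockout saline. It stood at 1374 CPM in C2 and 1635 CPM in L4, and at 20.7 CPM in C3, which carries the same label. "Labelled knockout" is therefore used throughout. C3 lay at the saline level for most of the chaperone genes as well. In 28 of the 39 genes the other 5 cerulein libraries all lay above all 6 saline libraries, and in 1 gene all lay below. Over all 14329 genes tested, 20.5% were separated upward and 15.4% downward in this way. For these 29 genes C3 was inside the saline range in 23 and nearer the saline mean in 28, the exception being Dnajb6. Results from 12 libraries keep C3 as labelled, and values without it stand beside them. C3 was set apart after the data were seen, for its own values, so calls without it are no independent support for a response. The 8 acinar markers, led by digestive enzymes, were abundant in every library. Their sum was 299500 to 455600 CPM in the saline libraries and 220000 to 275200 CPM in the cerulein libraries other than C3. N3 and K4 were the richest in 5 adipocyte markers (349 and 408 CPM, against 29.5 to 136 CPM elsewhere), and the highest level of each of the 6 lymphocyte and 6 myeloid markers was in N3 or K4. The 4 duct markers summed to 24.2 to 29.7 CPM in saline, 148.8 to 225.7 CPM in wild-type cerulein, 80.5 CPM in C2, 97.5 CPM in L4 and 27.2 CPM in C3. The 5 islet markers summed to 11000 CPM in L4, 1284 CPM in C2 and 439.8 to 3421 CPM in the other libraries.

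**Figure D1:**
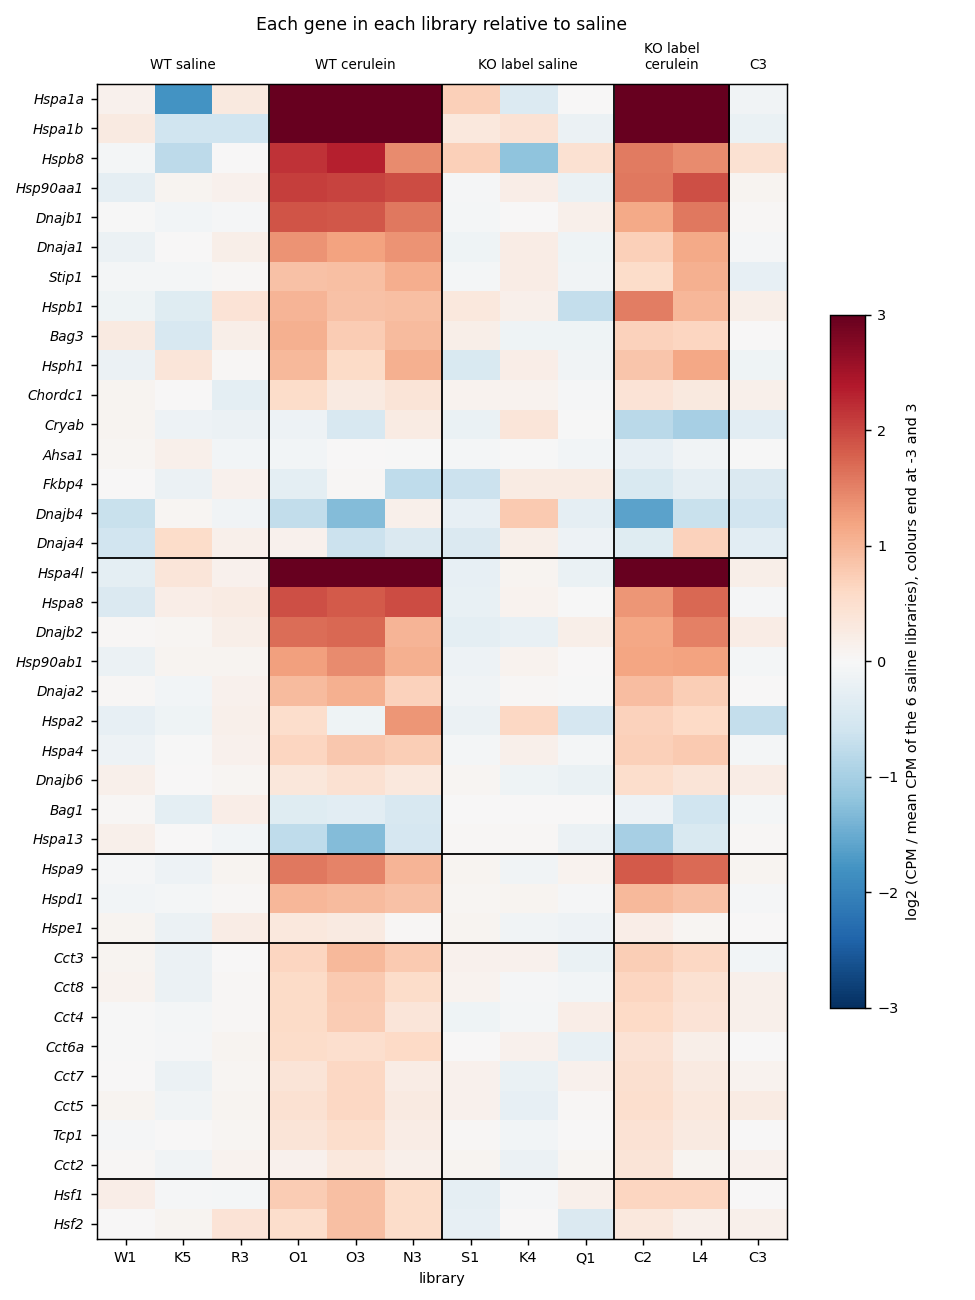
Colour map of each of the 39 genes (rows, by class) in each library (columns), as log2 of its CPM over the mean of the 6 saline libraries. The 5 cerulein libraries O1, O3, N3, C2 and L4 are red for most rows, and C3, drawn apart at the right, looks like the 6 saline libraries.

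In wild-type pancreas cerulein raised 22 of the 39 chaperone genes and lowered 1, and 16 did not pass (edgeR's quasi-likelihood test, Benjamini-Hochberg adjusted p below 0.05 over all genes). Over all genes tested 17.9% were called higher and 12.8% lower, a smaller share of rises than among the members. The members were chosen with earlier results of these data known, so their larger share is no independent support. The median log2 fold change was 0.74 over the members and 0.05 over all genes. By class, 9 of 16 stress-inducible, 6 of 10 constitutive, 2 of 3 mitochondrial and 4 of 8 CCT genes rose, and 1 of 2 factors. The median log2 fold change was 0.92, 0.82, 0.97, 0.49 and 0.60 in that order. In whole tissue, more RNA of a gene per cell cannot be told apart from more cells that express it, and the part of the acinar and duct markers in these rises was not tested. All 3 cerulein libraries lay above all 3 saline libraries in 30 members, beside 27.5% of all genes, and below in 2 (Hspa13 and Bag1), beside 24.9%. With the scaling done without the 50 most abundant genes all but 1 of the 23 calls, that of Chordc1, still passed.

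The spread shared by all groups included C3. Without C3 the biological coefficient of variation fell from 0.357 to 0.304, and 27 members rose and 1 fell in wild type, beside 21.3% and 16.6% of all genes. With 12 libraries 10 of the 23 calls held whichever of the 12 libraries was left out: Hspa1a, Hspa1b, Hspa4l, Hspb8, Hsp90aa1, Hspa8, Dnajb1, Dnajb2, Dnaja1 and Hspd1. The number that rose was 11 without K5 or without O3 and 13 without R3.

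**Figure D2:**
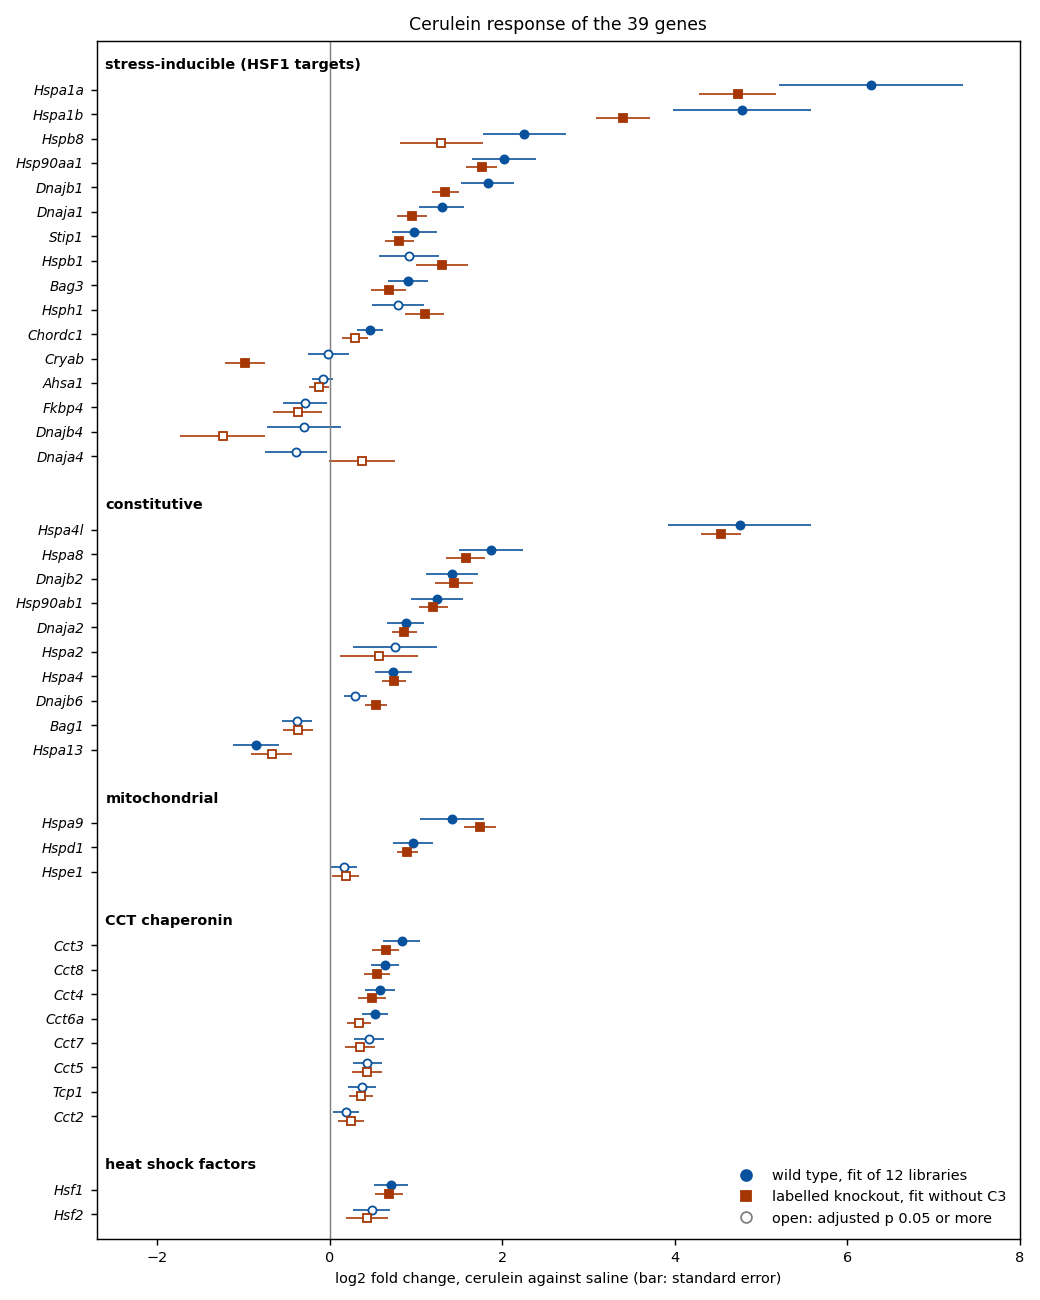
Log2 fold change of cerulein against saline, with its standard error, for each gene by class. Blue circles are wild type (12 libraries) and brown squares the labelled knockout (without C3), filled where the adjusted p was below 0.05. Hspa1a, Hspa1b and Hspa4l stand far to the right of all other members in both.

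The inducible cytosolic Hsp70 genes were among the 3 members with the largest changes, beside Hspa4l. Hspa1a (ENSMUSG00000091971, chromosome 17, 34969190 to 34972156, minus strand, GRCm38, a gene of 1 exon) was at 0.388 (W1), 0.103 (K5) and 0.433 CPM (R3) in wild-type saline and at 33.8 (O1), 15.3 (O3) and 24.4 CPM (N3) in cerulein. These are 6, 2 and 11 counts against 918, 316 and 691. It rose on the log2 scale by 6.28 ± 1.07 (SE, 3 libraries a group, edgeR adjusted p = 0.00918), and the groups were far apart. Its neighbour Hspa1b (ENSMUSG00000090877, 34956436 to 34959238 on the same strand) rose from 1.23, 0.667 and 0.669 CPM to 29.8, 15.5 and 23.9 CPM, by 4.78 ± 0.80 (adjusted p = 0.00918). In both genes O3 was the lowest of the cerulein libraries.

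Reads of this pair are hard to separate. Of the 50-base words in Hspa1a transcripts 66.3% also occur in another gene, mostly Hspa1b, and of those in Hspa1b 62.3%, so the split between the pair is uncertain. The ratio of Hspa1a to Hspa1b per kilobase of transcript within a library was 0.145 to 0.611 in the 6 saline libraries and 0.93 to 1.07 in wild-type cerulein. Their promoters are nearly the same as well. The 250 bases before the start site are shown for both because 247 of 250 bases (98.8%) are identical. They are RefSeq sequence (GRCm38.p6), minus strand, chr17:34972157-34972406 for Hspa1a and chr17:34959239-34959488 for Hspa1b. HSF1 binds heat shock elements, which are runs of GAA units in alternating direction, and no exact run of 3 units was in either window. Capitals mark a match of 2 units, which describes letters and not binding:
Hspa1a: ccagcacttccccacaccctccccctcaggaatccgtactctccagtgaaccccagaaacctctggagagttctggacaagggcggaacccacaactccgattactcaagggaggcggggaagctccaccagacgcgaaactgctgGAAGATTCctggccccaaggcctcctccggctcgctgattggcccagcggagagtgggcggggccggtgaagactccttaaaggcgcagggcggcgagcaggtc
Hspa1b: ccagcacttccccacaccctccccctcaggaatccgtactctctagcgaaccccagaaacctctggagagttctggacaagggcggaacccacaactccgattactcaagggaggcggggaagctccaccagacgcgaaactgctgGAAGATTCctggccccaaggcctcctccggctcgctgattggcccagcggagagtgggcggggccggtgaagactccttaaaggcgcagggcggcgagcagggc

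Against this near-silent pair stood Hspa8 (Hsc70), the constitutive cytosolic Hsp70, which was the most abundant member per length in saline and in cerulein. It rose from 328, 504 and 523 CPM to 1676, 1576 and 1706 CPM in wild type, by 1.87 ± 0.38 (adjusted p = 0.00921), with no overlap. Per kilobase its mean went from 189 ± 45 to 690 CPM per kilobase (SD, n = 3), while Hspa1a reached 8.26. Within a library the level of Hspa1a per kilobase was thus at most 0.0163 of that of Hspa8, in O1. This ratio leaves out Hspa1b, at a mean of 8.235 CPM per kilobase in wild-type cerulein. How reads shared by the pair were counted is not given, so the level of Hspa1a is itself uncertain. Of the 50-base words of Hspa8 39.4% are shared with other gene models, mostly processed copies, and 3 snoRNA genes overlap its annotated exons on the same strand.

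Hspa4l (ENSMUSG00000025757, chromosome 3, 40744495 to 40796103, plus strand), an Hsp110 relative that serves as nucleotide exchange factor for Hsp70, was placed in the constitutive class but changed like the inducible pair. It stood at 2.65, 4.21 and 3.58 CPM in wild-type saline and at 97.4, 101.7 and 84.2 CPM in cerulein. The rise was 4.76 ± 0.83 (adjusted p = 0.00918), and only 0.356% of its 50-base words occur in another gene. The 2 other Hsp110 genes changed less. Hspa4 rose from 39.4 to 47.7 CPM in saline to 68.1 to 76.8 CPM in cerulein, by 0.74 ± 0.21 (adjusted p = 0.024, lost without any one of W1, K5, R3, O1 or O3). Hsph1 was at 12.4, 18.0 and 14.2 CPM and at 27.6, 20.7 and 29.1 CPM, a change of 0.79 ± 0.30 that did not pass (adjusted p = 0.0689) although the groups did not overlap. Without C3 it passed (adjusted p = 0.0121), and DESeq2 called it with 12 libraries.

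**Figure D3:**
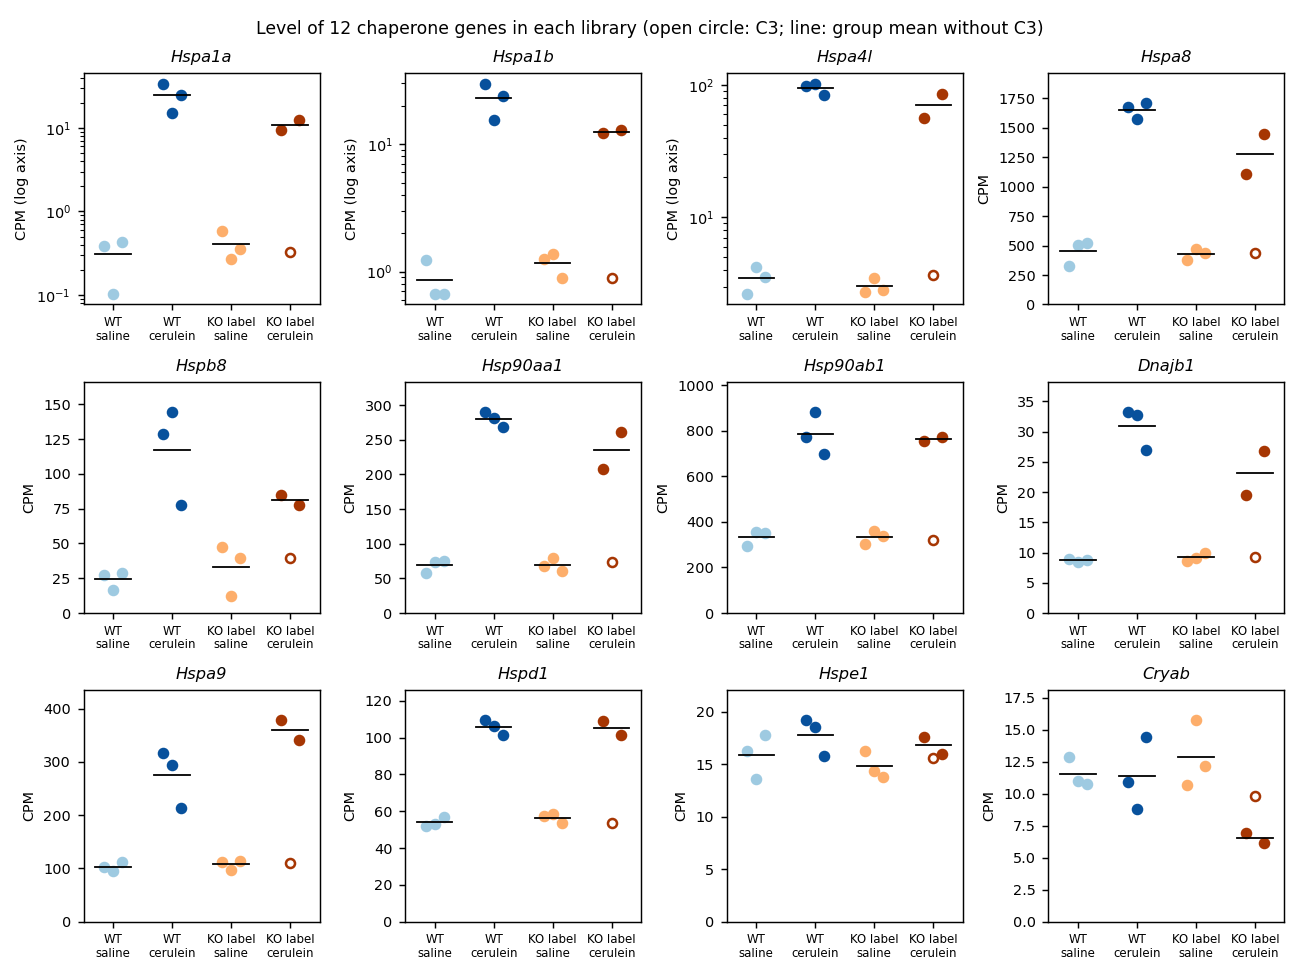
CPM of 12 chaperone genes in each library, by group, with the mean as a line (without C3, the open circle), on a log axis for Hspa1a, Hspa1b and Hspa4l and a linear axis from 0 for the rest. Cerulein libraries other than C3 lie above the saline libraries in 10 panels, while Hspe1 overlaps and Cryab is lowest in C2 and L4.

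Both cytosolic Hsp90 genes rose. Hsp90aa1, the inducible form, went from 57.5, 73.5 and 75.6 CPM to 290.2, 281.8 and 268.8 CPM, by 2.03 ± 0.37 (adjusted p = 0.00918). Hsp90ab1, the constitutive form, went from 293, 355 and 349.9 CPM to 775, 884 and 697 CPM, by 1.24 ± 0.30 (adjusted p = 0.0135, lost without W1 or O3). The inducible form thus came to make up more of the pair: its ratio to Hsp90ab1 per kilobase was 0.138 to 0.173 in saline and 0.245 to 0.296 in wild-type cerulein. Of the 50-base words of Hsp90aa1 47.5% are shared with other gene models, against 3.44% for Hsp90ab1.

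The Hsp90 co-chaperones divided. Stip1 (Hop), which hands clients from Hsp70 to Hsp90, rose by 0.98 ± 0.26 (adjusted p = 0.0187, lost without W1, K5, R3 or O3). Chordc1 rose by 0.47 ± 0.15 (adjusted p = 0.0345), a call that ended without any one of 8 libraries, all 6 of wild type among them. Ahsa1, which stimulates the Hsp90 ATPase, was at 22.1, 23.7 and 20.2 CPM before and 20.2, 21.4 and 20.9 CPM under cerulein, a change of -0.08 ± 0.12 (adjusted p = 0.66). Fkbp4, an immunophilin of steroid receptor complexes, was at 45.4, 39.8 and 49.0 CPM against 36.9, 46.5 and 26.6 CPM, a change of -0.29 ± 0.26 (adjusted p = 0.421). The ranges of both genes overlapped between the groups.

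Of the 3 small heat shock proteins 1 rose. Hspb8, a partner of Bag3 in the disposal of aggregates, rose from 27.5, 16.8 and 29.0 CPM to 128.7, 144.5 and 77.6 CPM, by 2.26 ± 0.48 (adjusted p = 0.0104), with N3 the lowest of the cerulein libraries. Bag3 itself rose by 0.91 ± 0.23 (adjusted p = 0.0154, lost without K5 or O1). Hspb1, in saline the most abundant stress-inducible member per length at 26.3 ± 7.5 CPM per kilobase (SD, n = 3), was at 21.6, 18.3 and 31.4 CPM and at 47.9, 43.0 and 44.3 CPM. Its change of 0.92 ± 0.35 did not pass (adjusted p = 0.0675). It passed without C3 (adjusted p = 0.023) and by DESeq2 with 12 libraries, but not without C3, N3 and K4 (adjusted p = 0.0536), and 50.1% of its 50-base words occur in other gene models, mainly a pseudogene. Cryab (alpha-B crystallin) was at 12.9, 11.0 and 10.7 CPM and at 10.9, 8.76 and 14.4 CPM, a change of -0.02 ± 0.24 (adjusted p = 0.966).

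Of the 7 J-proteins 4 rose. Dnajb1 (Hsp40), the main partner of inducible Hsp70, was at 8.92, 8.47 and 8.74 CPM in wild-type saline and at 33.2, 32.8 and 26.9 CPM in cerulein. It rose by 1.83 ± 0.30 (adjusted p = 0.00918). Dnaja1 rose by 1.30 ± 0.26 and Dnajb2, with ubiquitin-binding motifs, by 1.42 ± 0.30 (adjusted p = 0.00921 and 0.0101). Dnaja2 rose by 0.88 ± 0.22 (adjusted p = 0.014, lost without K5 or O3). Dnajb6, which suppresses aggregation, was at 17.8, 16.2 and 16.8 CPM and at 20.3, 22.1 and 19.9 CPM. Its groups did not overlap, but the change of 0.29 ± 0.13 did not pass (adjusted p = 0.111).

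Dnaja4 and Dnajb4 are classed as stress-inducible and did not rise. Dnaja4 was at 4.14, 9.09 and 6.85 CPM against 6.77, 3.97 and 4.56 CPM under cerulein, a change of -0.39 ± 0.36 (adjusted p = 0.44). It shares 1581 exonic bases with Wdr61 on the opposite strand, and the strand setting of the counting is not known. Dnajb4 was at 4.72, 7.86 and 7.01 CPM and at 4.49, 3.05 and 8.42 CPM, a change of -0.29 ± 0.43 (adjusted p = 0.641). The groups overlapped in both genes.

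The remaining constitutive genes gave the only fall. Hspa13 (Stch), an Hsp70 relative of the microsomes, was at 12.7, 11.7 and 10.9 CPM in wild-type saline and at 6.77, 4.64 and 8.10 CPM in cerulein, and fell by 0.85 on the log2 scale (SE 0.26, adjusted p = 0.032). The call was lost when any one of W1, K5, R3, O1 or O3 was left out, and with no filter on low counts (adjusted p = 0.0658). Bag1, another exchange factor for Hsp70, was at 45.0, 36.2 and 50.3 CPM and at 34.4, 35.3 and 31.5 CPM, without overlap, but its change of -0.38 ± 0.17 did not pass (adjusted p = 0.12). Hspa2, an Hsp70 best known from the testis, was low throughout, at 0.711, 0.77 and 0.945 CPM and at 1.22, 0.774 and 2.12 CPM, a change of 0.76 ± 0.48 (adjusted p = 0.256).

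The mitochondrial chaperones did not rise in proportion. Hspa9 (mortalin), the Hsp70 of the matrix that also pulls proteins through the import channel, went from 102.1, 95.4 and 111.1 CPM to 316, 294.6 and 213.6 CPM. It rose by 1.42 ± 0.37 (adjusted p = 0.0172, lost without W1, K5, R3, O1 or O3). Hspd1 (Hsp60), the matrix chaperonin, went from 52.2, 53.3 and 56.6 CPM to 109.4, 106.6 and 101.3 CPM and rose by 0.97 ± 0.23 (adjusted p = 0.0126). Hspe1 (Hsp10), the lid of the same chaperonin, was at 16.3, 13.6 and 17.8 CPM and at 19.2, 18.5 and 15.8 CPM. Its change of 0.17 ± 0.15 did not pass (adjusted p = 0.42), and the groups overlapped.

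Hspd1 (ENSMUSG00000025980) and Hspe1 (ENSMUSG00000073676) lie head to head on chromosome 1 of GRCm38, at 55077835 to 55088243 on the minus strand and 55088132 to 55091307 on the plus strand, with 112 exonic bases in common. The ratio of Hspd1 to Hspe1 per kilobase was 1.02, 1.26 and 1.02 in W1, K5 and R3, and 1.82, 1.84 and 2.05 in O1, O3 and N3. It was 1.13, 1.30 and 1.24 in S1, K4 and Q1, 1.98 in C2, 2.02 in L4 and 1.11 in C3, so the 5 cerulein libraries other than C3 lay between 1.82 and 2.05 and the other 7 between 1.02 and 1.30. Of their 50-base words 42.1% (Hspd1) and 22.8% (Hspe1) occur elsewhere, mainly in processed copies. The pair shares a single run of heat shock units, shown because it stands before a start site of each gene while 1 of them rose and the other did not pass. It is GRCm38.p6 chr1:55088054-55088081, within an annotated exon of Hspd1, 149 to 122 bases before the start of the Hspd1 window and 94 to 67 bases before that of Hspe1. Hspd1 has another window, at the start of its annotated span (base 55088243), without a match. The run lies after that start. Capitals mark the units:
Hspd1, minus strand: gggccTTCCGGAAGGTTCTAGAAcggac
Hspe1, plus strand: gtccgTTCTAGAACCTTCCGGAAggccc

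The 8 subunits of CCT all had positive changes in wild type, from 0.19 to 0.83, and 4 of 8 passed. Cct3 rose by 0.83 ± 0.21, Cct8 by 0.64 ± 0.16, Cct4 by 0.58 ± 0.17 and Cct6a by 0.53 ± 0.15 (adjusted p = 0.0161, 0.0162, 0.0277 and 0.0241). Each of these calls ended without 3 or more single libraries, K5, R3 and O3 among them. Tcp1, Cct5 and Cct7 changed by 0.37 ± 0.16, 0.44 ± 0.17 and 0.45 ± 0.17 and did not pass with 12 libraries, but did without C3 (adjusted p = 0.0384, 0.0454 and 0.0384) and by DESeq2 with 12 libraries. Cct2 passed in neither fit and was the least changed subunit, at 72.0, 65.2 and 75.9 CPM without and 77.4, 87.5 and 78.2 CPM with cerulein.

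CCT subunits assemble in equal numbers, but their RNA did not stand at equal levels. In wild-type saline Cct5 was the highest at 57.2 ± 4.2 CPM per kilobase (SD, n = 3), followed by Cct2 at 36.3 ± 2.8 and Tcp1 at 31.7 ± 0.9. Cct7 (25.2 ± 2.1) and Cct4 (24.2 ± 0.8) overlapped, and Cct8, Cct3 and Cct6a followed at 17.6 ± 1.8, 14.3 ± 1.3 and 12.05 ± 0.56. The highest was 4.75 times the lowest in wild-type saline and 4.46 times in cerulein, and without Cct6a, whose length rests on a transcript that is not annotated as coding, 4.00 and 3.04 times. Of the 50-base words 15.4% (Cct6a) and 13.9% (Tcp1) occur in other genes. Tcp1, Cct6a, Cct7 and Cct8 share exonic bases with genes on the opposite strand, among them 571 of Tcp1 with Acat3. The part of these in the spread between subunits was not tested. Cct5, the most abundant, was at 110.8, 97.1 and 110.1 CPM and at 144, 161.3 and 125.5 CPM, without overlap.

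**Figure D4:**
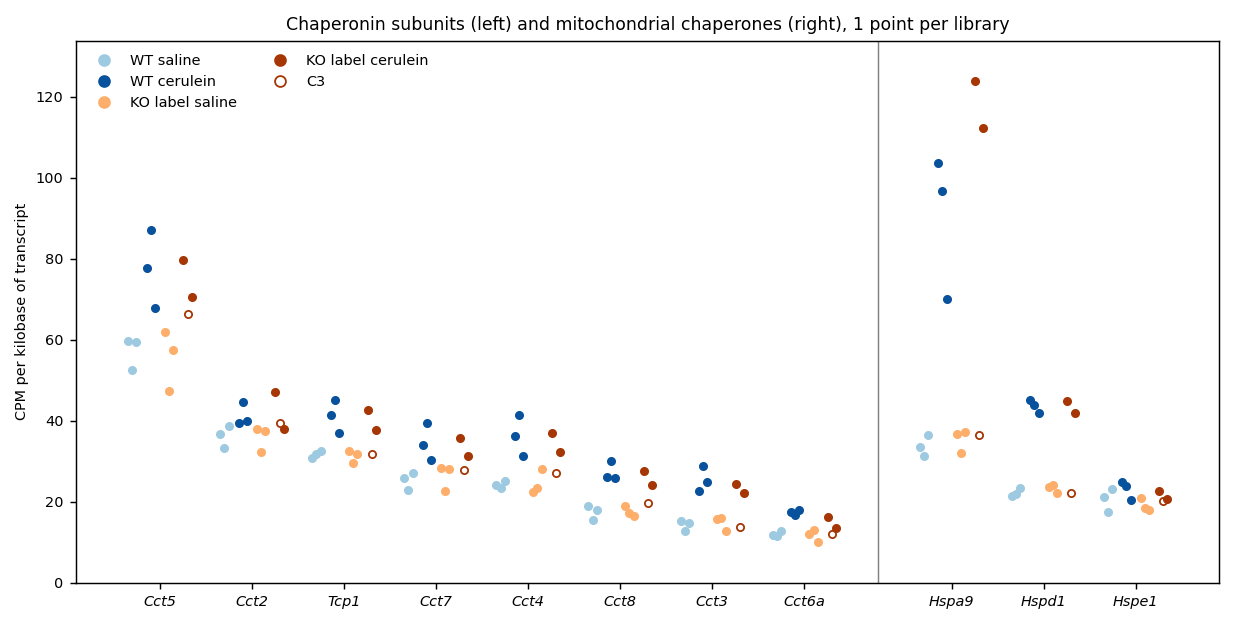
CPM per kilobase of transcript (linear axis from 0) of the 8 CCT subunits and 3 mitochondrial chaperones, 1 point per library, coloured by group, C3 open. Cct5 is highest of the subunits in every group, and Hspd1 separates from Hspe1 in cerulein (means of 43.6 and 23.0 in wild type) but not in saline (22.3 and 20.5).

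Of the factors, Hsf1 was at 15.4, 13.0 and 12.8 CPM in wild-type saline and 22.7, 25.0 and 19.7 CPM in cerulein, and rose by 0.71 ± 0.19 (adjusted p = 0.0208, lost without K5, R3, O1 or O3). Hsf2 was lower, at 2.26, 2.36 and 2.99 CPM and at 3.24, 4.21 and 3.25 CPM. Its change of 0.48 ± 0.22 did not pass (adjusted p = 0.115), although the groups did not overlap. HSF1 is controlled mainly at the protein level, which counts of RNA do not show.

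In the labelled knockout no member passed with 12 libraries, and neither did any other gene (0.0% called). At an unadjusted p below 0.05 there were 22 of 39 members, beside 3256 of 14329 genes, and DESeq2 called 11 members higher beside 8.48% of all genes. Limma-voom called 0, with 21 at an unadjusted p below 0.05. Without C3, also left out after the data were seen, edgeR called 22 members higher and 1 lower, beside 18.7% and 10.5% of all genes. DESeq2 without C3 called 22 higher and 3 lower, beside 18.5% and 12.6% of all genes, and limma-voom 22 and 2, beside 18.0% and 11.0%. Without C3, N3 and K4, a further choice made after the data were seen, edgeR called 21 higher and 2 lower, beside 17.0% and 12.7%. Both C2 and L4 lay above the 3 labelled knockout saline libraries in 29 members, beside 29.3% of all genes, and below in 5, beside 23.7%. With C2 and L4 alone standing for cerulein, no further library was left out in turn. L4 was the richest of the 12 libraries in islet markers, and the part of islet cells in these changes was not tested.

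The members called in the labelled knockout without C3 were mostly those of wild type. Of 27 that rose in wild type without C3, 21 (77.8%) rose in the labelled knockout, where they made 95.5% of the 22. The same overlap over all genes is not given here, so it cannot be called particular to the members. Dnajb6 rose in the labelled knockout and did not pass in wild type, and Hspb8, Chordc1, Tcp1, Cct5, Cct6a and Cct7 passed in wild type alone; none of these differences passed a test of its own. Hspa1a was at 0.586, 0.267 and 0.357 CPM in S1, K4 and Q1 and at 9.51 and 12.4 CPM in C2 and L4, against 0.328 CPM in C3. Its change was 4.18 ± 0.99 with C3 (adjusted p = 0.086) and 4.73 ± 0.45 without (adjusted p = 5.62e-05). Hspa1b went from 1.25, 1.38 and 0.893 CPM to 12.2 and 12.8 CPM, with C3 at 0.89, a change of 2.87 ± 0.74 with C3 and 3.40 ± 0.31 without (adjusted p = 0.086 and 4.15e-05).

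Other members with large changes there were as follows. Hspa4l went from 2.76, 3.47 and 2.86 CPM to 56.2 and 84.6 CPM, with C3 at 3.70, and rose by 4.54 ± 0.24 without C3 (adjusted p = 1.61e-06). Hsp90aa1 went from 67.8, 79.0 and 60.5 CPM to 207.9 and 261.4 CPM, with C3 at 73.2, and rose by 1.77 ± 0.18 (adjusted p = 7.16e-05). Hspa9 went from 112.2, 97.3 and 113.7 CPM to 377.7 and 341.9 CPM, with C3 at 110.9, and rose by 1.74 ± 0.19 (adjusted p = 9.57e-05). With C3 kept these changes were 3.99 ± 0.80, 1.39 ± 0.36 and 1.36 ± 0.37 and did not pass (adjusted p = 0.086, 0.086 and 0.0875).

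Hspb8, among the largest rises of wild type, went from 47.2 (S1), 12.5 (K4) and 39.7 CPM (Q1) to 85.0 and 77.5 CPM, with C3 at 39.7. The change of 1.29 ± 0.48 without C3 did not pass (adjusted p = 0.068), and K4 was the lowest of the 12 libraries. Hspb1 and Hsph1 missed the threshold with 12 libraries by edgeR under both labels and passed it without C3 under both. In the labelled knockout without C3 they rose by 1.30 ± 0.30 and 1.10 ± 0.23 (adjusted p = 0.00864 and 0.00472). Hspd1 rose by 0.90 ± 0.13 (adjusted p = 0.000445), while Hspe1 changed by 0.18 ± 0.16 (adjusted p = 0.407), the same order as in wild type. Hspa13 was at 11.8, 11.8 and 10.2 CPM and at 5.74 and 8.35 CPM, without overlap, and its change of -0.67 ± 0.24 did not pass (adjusted p = 0.0537).

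Cryab was the member that fell there. Its level was 10.6 CPM in S1, 15.7 CPM in K4 and 12.2 CPM in Q1, against 6.91 CPM in C2, 6.12 CPM in L4 and 9.80 CPM in C3. Its change was -0.76 ± 0.24 with C3 (adjusted p = 0.108), and without C3 it fell by 0.98 on the log2 scale (SE 0.23, adjusted p = 0.00965). Cryab is abundant in muscle, and the 8 muscle markers summed to 17.3 to 43.4 CPM in labelled knockout saline, 16.1 CPM in C2 and 34.4 CPM in L4, with the skeletal markers Acta1 at 0 in S1 and Myh1 at 0 in K4, Q1, C2 and L4. K4 and N3, rich in adipocyte markers, had the highest Cryab of the 12 libraries. They also had the highest muscle sums, 43.4 CPM in K4 and 34.8 CPM in N3, with L4, low in Cryab, next at 34.4 CPM. Without C3, N3 and K4 the change of Cryab was -0.86 (edgeR adjusted p = 0.00665). Its gene also shares 252 exonic bases with Hspb2 on the opposite strand. The part of other cells in these values was not tested.

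Between the labels no member passed in saline, in cerulein or in the difference of the 2 responses, and no gene at all did by edgeR (0.0% called in each, with 12 libraries or without C3). In saline no member of the 39 reached an unadjusted p below 0.05 by edgeR (60 of 14329 genes did), DESeq2 or limma-voom, and in no member did the 3 labelled knockout libraries lie all above or all below the 3 of wild type, beside 2.09% and 2.74% of all genes. In cerulein 3 members reached it by edgeR (Cryab, Dnaja1 and Dnajb1), beside 1146 of 14329 genes, and 4 without C3 (Hspa1a, Hspa1b, Cryab and Dnajb1), beside 747 of 14733. DESeq2 gave 0 calls with 7 members at an unadjusted p below 0.05, beside 1312 of 14329 genes, and limma-voom 0 with 8, beside 871.

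Levels in cerulein were nevertheless ordered in some members. In 11 of 39 both C2 and L4 lay below all 3 wild-type cerulein libraries, beside 6.53% of all genes, and in 1 (Hspa9) both lay above, beside 9.51%. The 11 were Hspa1a, Hspa1b, Hsp90aa1, Hspa8, Dnaja1, Dnajb1, Bag3, Cryab, Ahsa1, Cct6a and Hsf2. Hspa1a was at 9.51 and 12.4 CPM against 15.3 to 33.8 CPM, a difference of -1.16 ± 0.38 without C3 (edgeR unadjusted p = 0.0115, adjusted p = 0.929). Dnajb1 was at 19.5 and 26.8 CPM against 26.9 to 33.2 CPM, a difference of -0.41 ± 0.16 (unadjusted p = 0.0268, adjusted p = 0.973), and L4 lay just under N3. Hspa8 was at 1111 and 1447 CPM against 1576 to 1706 CPM.

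The difference of the responses was tested as an interaction, and 1 member with 12 libraries (Cryab) and 4 without C3 (Hspa1a, Hspa1b, Cryab and Dnajb1) reached an unadjusted p below 0.05, beside 594 of 14329 and 508 of 14733 genes. For Hspa1a it was -2.10 ± 1.43 (adjusted p = 0.812), and -1.54 ± 0.68 without C3 (adjusted p = 0.9995). For Hspa1b it was -1.91 ± 1.03 (adjusted p = 0.812), and -1.39 ± 0.44 without C3 (adjusted p = 0.9995). For Hspa4l it was -0.77 ± 1.03, and -0.22 ± 0.30 without C3. DESeq2 and limma-voom called 0 members, with 1 at an unadjusted p below 0.05 for each, beside 763 and 403 genes. Since Atf3 RNA was not lower under the knockout label and C3 lay at the saline level, these values compare the labels only.

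Promoters of the members were searched for heat shock elements, made of inverted repeats of GAA with 2 free bases between units. RefSeq windows (GRCm38.p6, 250 bases before to 50 after a start site) were matched for 31 of the 39 genes by symbol. The genes with none were Cryab, Hspa8, Cct4, Hsf1, Hspa9, Hsp90ab1, Hspa13 and Hsp90aa1. Windows on chromosome 18, where Hspa9 lies, were left out of the search and of the shares of all genes. An element of 2 units, GAANNTTC or TTCNNGAA on either strand, was found in 17 of the 31 genes, against 17.0% of 27025 genes with a window. It was in 11 of 14 stress-inducible, 1 of 7 constitutive, 2 of 2 mitochondrial and 3 of 7 CCT genes, and in 0 of 1 factor. An exact run of 3 alternating units was in 5 (Hspd1, Hspe1, Hsph1, Chordc1 and Dnajb6), against 0.662% of genes.

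The share of genes that rose was not higher among those with an element. Of 17 genes with a 2-unit match 8 rose in wild type, with a median log2 fold change of 0.53, and of 14 without a match 8 rose, with a median of 0.75. Hspa4l and Dnajb1 rose with no exact match in their windows, and Hsph1, Hspb1, Fkbp4, Dnajb4 and Dnaja4 had a match and did not pass. The CRE palindrome TGACGTCA, a site of ATF and CREB proteins, was in 0 of 31, against 2.03% of genes. CCAAT (or ATTGG) was in 14 of 31, against 41.1%. A match describes letters in the window and not binding, and no match says only that these letters are not there.

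Matches upstream of a start site in 5 stress-inducible genes that differed in response are shown, each with 5 bases on either side and the units in capitals (GRCm38.p6). The stretches of Dnaja1, Hsph1 and Fkbp4 lie within annotated exons, and those of Hspb1 and Dnajb4 touch none. Dnaja1 and Dnajb4 also have windows at other start sites without a match. Dnaja1 rose, at chr4:40722339-40722356 on the plus strand. Hspb1, at chr5:135887797-135887834, plus, and Hsph1, at chr5:149636357-149636374, minus, passed by edgeR without C3 and not with 12 libraries. The run of 3 units in Hsph1 lies after the start, beginning at base 37 or 16 by the start site taken, and is not shown. Fkbp4, at chr6:128438795-128438812, minus, and Dnajb4, at chr3:152193847-152193864, minus, passed in neither fit:
Dnaja1: ctctaGAAAATTCtacga
Hspb1: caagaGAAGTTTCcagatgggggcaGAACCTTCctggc
Hsph1: aatctTTCTCGAAggctc
Fkbp4: ctctaGAAAGTTCtccgc
Dnajb4: cgctgTTCTAGAAagtac

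**Figure D5:**
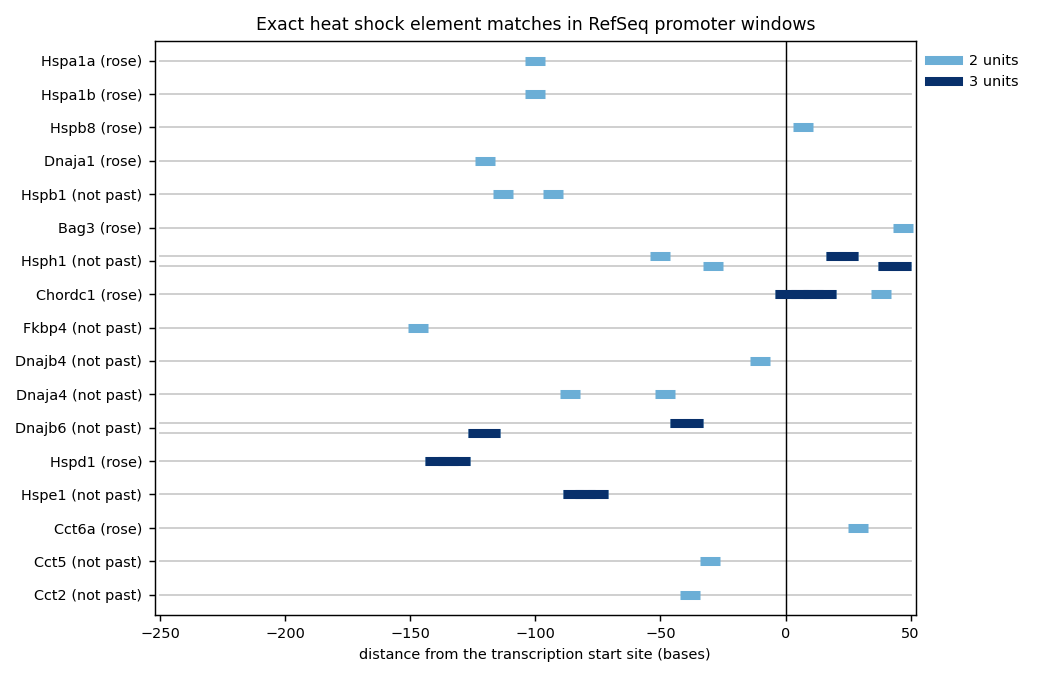
Position of exact heat shock element matches, as distance in bases from the start site, in the 17 genes with a match. Each grey line is a RefSeq window, light bars are matches of 2 units and dark bars runs of 3, and the label says whether the gene rose in wild type (8 of 17). Hspa1a and Hspa1b carry theirs at the same place, 104 bases before the start.

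Other genes of the same pathways, 63 in 7 lists, are given for comparison. In wild type 10 of the 58 tested rose, 5 fell and 43 did not pass, with a median log2 fold change of -0.02. These shares lie near or below the 17.9% higher and 12.8% lower of all genes. Without C3 12 rose and 13 fell, beside 21.3% and 16.6% of all genes. Of 8 prefoldin and CCT helper genes 2 rose, Pfdn4 (1.91 ± 0.41) and Pdcl3 (1.03 ± 0.32). Of 12 further Hsp90 co-chaperones tested 1 rose, Ptges3 (p23, 0.84 ± 0.19), and 1 fell. That was Fkbp5, a glucocorticoid-induced immunophilin, which went from 145.4, 222 and 253.4 CPM to 23.3, 19.1 and 31.2 CPM and fell by 3.08 (SE 0.72, adjusted p = 0.0125). It was at 51.8 (C2) and 28.0 CPM (L4) against 263.7 CPM in C3, and its change in the labelled knockout was -0.97 ± 0.67 with C3 (adjusted p = 0.384), while it fell by 2.49 without (SE 0.43, adjusted p = 0.00167).

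Of 5 further exchange factors 1 fell, Bag4 (-1.38 ± 0.36), and of 12 further J-proteins and Hsp70 relatives 3 rose, led by Dnajb5 (0.88 ± 0.26) and Dnajc2 (0.85 ± 0.23). None of 3 small heat shock proteins tested passed by edgeR, and none reached an unadjusted p below 0.05. Of 11 further mitochondrial chaperones and proteases 1 rose and 3 fell. Dnaja3, the J-protein of the matrix, rose by 1.05 ± 0.24, while Grpel2, an exchange factor for Hspa9, fell by 1.27 (SE 0.21). Of 7 other regulators and targets 3 rose, among them the autophagy receptor Sqstm1 (1.75 ± 0.46) and Dedd2 (1.47 ± 0.31). Adjusted p was 0.00918 to 0.033 for the genes named from these lists (edgeR).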

How the data were processed

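Total RNA of whole pancreas was made into libraries with a strand-specific Illumina kit, per the labels' protocols. The authors deposited raw read counts per Ensembl gene (49585 per library, 49326 matched to GENCODE M21 for symbols, coordinates and lengths), with no normalization. HTSeq, DESeq2 and mm10 are named, per the submitters' processing notes, without versions or roles. Which aligner, annotation release and strand option were used is not given in the sources used here.

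Genes were kept by filterByExpr (14329, or 14733 without C3), scaled by TMM and fitted with a mean for each of 4 groups in edgeR 4.0.16 (R 4.3.3) by the robust quasi-likelihood method, with two-sided tests, p adjusted over all genes tested (Benjamini-Hochberg) and a threshold of 0.05. Standard errors were taken as the log2 fold change over the root of F. The steps were tested on simulated data for the wild-type response. Of 100 true 2-fold changes 11 were recovered, and of 100 true 4-fold changes 83, with 2 false calls in a test of 13935 genes. The simulation gave every gene the same biological coefficient of variation, 0.357 as with 12 libraries, and changed no other genes. In the data the spread differs by gene and many more genes changed, so these shares do not carry over. Most 2-fold changes were missed in the simulation, and a gene that did not pass is not shown to be unchanged. The 5 comparisons were the 2 cerulein responses, the labels in saline and in cerulein, and the interaction. Alternatives used DESeq2 1.42.0, limma 3.58.1 (voom), other scalings and filters, and fewer libraries. Levels per kilobase used 1 principal transcript a gene. Promoter windows were RefSeq's, without those on chromosome 18. Tables and figures used Python 3.11.15.

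The members and lists were chosen with earlier results of these data known. Genes described in full were the 5 largest changes of each cerulein response, the most abundant of each class, any past a test between the labels, and those not past in wild type although most of their class was. From other lists at most 2 genes past the threshold in wild type were named. Members singled out beside them were chosen after their values were seen. A planned comparison of protein sequences was not run.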

Additional observations from a re-analysis of the deposited data

How the results depend on the processing

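No paired analysis was possible because the labels give animal codes and no replicate numbers: no code recurs, and the digit of a code recurs within a group (O3 and N3, S1 and Q1), so it numbers no replicate. Of 39 members, the number that rose in wild type ran from 11 to 27 and the number that fell from 0 to 1 as each library was left out, and with no filter on low counts 0 fell. In the labelled knockout the number that rose ran from 0 to 22 and the number that fell from 0 to 1, and both were above 0 only without C3. There DESeq2 with 12 libraries called 11 higher. Without C3 it called 22 higher and 3 lower, and limma-voom 22 higher and 2 lower. Without C3, N3 and K4, 21 were higher and 2 lower. Leaving out C3, alone or with N3 and K4, was a choice made after seeing the data. The cause of these changes was not tested beyond the libraries left out. No called result changed direction under any alternative run. Between the labels 0 members passed in every alternative. Genes with a heat shock element were 5 of 31 with 3 units and 17 with 2. For the CCT genes other than Cct2, whether a gene passed depended on the library left out, and the saline level of Hspa1a rests on as few as 2 counts (K5).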
